A study of Mus musculus with 6 samples.

Results

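The genes described here are the imprinted genes of the table other than *Grb10*, *Igf2* and *Igf2r*, the members of the IGF axis. The set was given as 47 gene symbols, of which 43 had a row among the 15266 genes of the table. A member was used if its mean over the 6 libraries was at least 10 normalized counts, which left 41 genes. A normalized count is the number of reads on a gene divided by 1 scaling factor for its library. *Nap1l5* and *Airn* had means below 10, and *Snrpn*, *Kcnq1*, *Dcn* and *Rasgrf1* were not analysed here. Just inside the limit, *Tspan32* had 10.6, 8.20 and 7.09 normalized counts in the EVX1-Δfs libraries and 9.56, 12.8 and 13.9 in the Del#3 libraries. Just outside it, *Nap1l5* averaged 3.72 and 4.21 and *Airn* 2.01 and 3.90 in the same order of lines, and *Airn* had 0 reads in Del#3 replicate 2. *Tspan32* had too few reads for the test, so 40 members were tested.

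Polyadenylated RNA was sequenced from day 4 embryoid bodies (EBs), the aggregates that embryonic stem cells form in serum once LIF, the factor that keeps them undifferentiated, is withdrawn. Both lines derive from W9.5 mouse embryonic stem cells. EVX1-Δfs is clone 14, with a small frameshift in each allele of *Evx1*, a homeobox gene of the primitive streak, and an otherwise intact locus. Del#3 lacks about 2.6 kb of the shared *Evx1* and *Evx1as* locus, *Evx1as* being the long noncoding RNA transcribed divergently from *Evx1*. No unedited cells were in this comparison, and 3 libraries of each line were sequenced from differentiations set up side by side on 3 different days. The comparison asks which transcripts differ once *Evx1as* is lost in addition to EVX1. Each genotype is 1 line, so an effect of the mutation and a difference between lines cannot be told apart.

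An imprinted gene is expressed mainly from the chromosome inherited from 1 parent. Most lie in clusters under an imprinting control region whose DNA is methylated in only the egg or only the sperm, and in the early embryo that methylation is held by ZFP57 and ZFP445, zinc finger proteins that recruit TRIM28 and DNA methyltransferases. Cultured embryonic stem cell lines are known to lose or gain imprints, and many imprinted genes act in growth, placenta and brain. The reads here were not split by allele, so every value is the sum of both parental copies, and the parent named for a gene is background. In these mixed cultures fewer expressing cells and less RNA per cell cannot be told apart.

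The libraries held 9024579 to 15699124 reads on listed genes, of which the members took 0.846% to 1.37%. *Evx1* had 2655 to 3671 normalized counts in EVX1-Δfs libraries and 32.5 to 38.3 in Del#3 libraries, as the labels say. Of 31 tested markers of the cell types such EBs can hold, 0 passed the adjusted threshold in limma, and the lines did not overlap for 3, *Zfp42*, *Tdgf1* and *Sox17*, each lower in Del#3, beside 3.51% of all genes. The summed level of 6 pluripotency markers was 12699 to 14839.7 in EVX1-Δfs and 9499 to 13968 in Del#3, with all 6 estimates lower in Del#3. *Zfp42*, a pluripotency marker, was 343, 341 and 457 against 288, 181 and 187 normalized counts, 1.74-fold higher in EVX1-Δfs, with an unadjusted limma p of 0.0156. The co-receptor *Tdgf1* was 1.30-fold and the endoderm regulator *Sox17* 1.27-fold higher there. That of 6 streak mesoderm markers was 8189 to 9988 against 6655 to 9181, with 5 of 6 lower. That of 6 visceral endoderm markers was 128 to 175 against 135 to 330, low in every library, with 3 of 4 tested higher in Del#3 and a median log2 fold change of 0.42. Among them *Ttr*, a serum transport protein, had 40.9, 24.6 and 22.4 against 69.3, 40.6 and 37.4, higher in Del#3 in each pair but with overlapping lines. Its unadjusted limma p was 0.112, or 0.042 with the replicate block. The sum of 6 trophoblast markers was 2399.6 to 4340.05 against 2976 to 5581, with 4 of 5 tested higher in Del#3. Most of that sum was *Hand1*, also a gene of mesoderm, with means of 2812 and 3958, while *Elf5*, a defining trophoblast gene, averaged 2.84 and 2.14. Markers of definitive endoderm (3 of 4 lower), hemangioblast (3 of 5 higher) and neurectoderm (1 tested, lower) gave 0 genes at an unadjusted p under 0.05 in limma, as did those of trophoblast. The part of these shifts in the values below was not tested.

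No member passed the test between the lines. With limma on log2(normalized count + 1) and Benjamini-Hochberg adjustment over 12891 genes, 0 of 40 members reached an adjusted p of 0.05, and 0.0155% of all genes did. These were 2 genes, *Evx1* and *Evx1as*, both of the edited locus. At an unadjusted p under 0.05 limma gave 1 member, *Nnat*, against 1.03% of all genes. edgeR's quasi-likelihood test also called 0 members, against 0.0155% of all genes, with 1 at an unadjusted p under 0.05 against 1.12% of all genes. DESeq2 called 0, against 0.0233% of all genes, with 2 unadjusted against 1.33%. The genes that DESeq2 called were *Evx1*, *Evx1as* and the imprinted *Grb10*, which is not a member. Libraries of the same replicate number came from the same day. Once that number entered as a block, limma and edgeR each still called 0 members, against 0.0233% of all genes. At an unadjusted p under 0.05 they then gave 7 members against 4.62% and 8 against 4.50%. DESeq2 with that block gave an adjusted p for 34 members and called 2 of them, against 0.182% of the genes it adjusted. They were *Peg3*, higher in Del#3 as were 0.152% of those genes, and *Nnat*, lower there as were 0.0303%.

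The estimates of the members were spread to both sides of zero, with signs and a median size near those of all genes. A size of at least 0.5 was estimated for 8 of the 40, beside 10.1% of all genes. In Del#3, 23 of the 40 were higher and 17 lower, beside 50.4% and 49.6% of all genes. Their median log2 fold change, Del#3 over EVX1-Δfs, was 0.067 beside 0.0022 for all genes, and their median absolute log2 fold change was 0.18 beside 0.16. The 18 members listed as paternally expressed had a median of 0.13, with 11 higher and 7 lower. The 20 listed as maternally expressed, some of them only in certain tissues, had a median of 0.0069, with 10 higher and 10 lower. For 21 members the 95% interval of the log2 fold change excluded any change of 2-fold or more, up or down, as did those of 61.1% of all genes. The remaining intervals were too wide to exclude a change of that size. The p-values measure the spread between these libraries only.

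**Figure D1:**
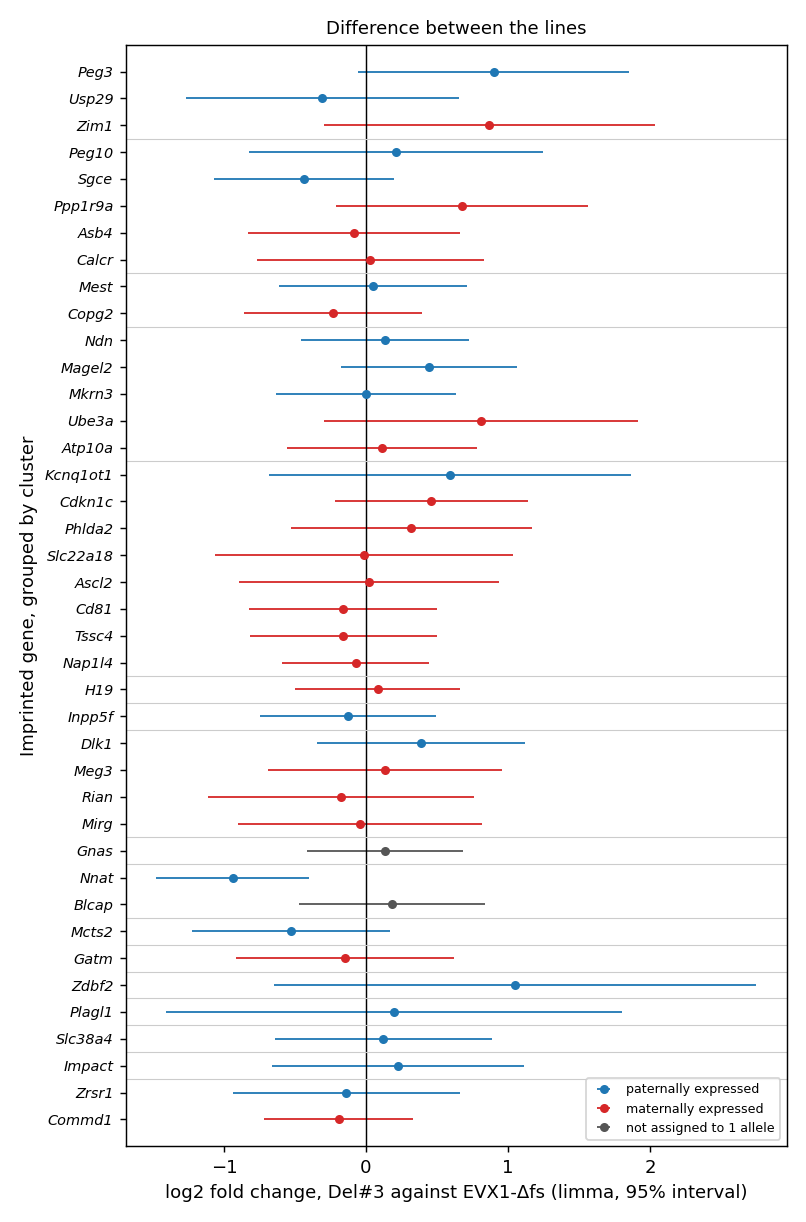
Log2 fold change of each of the 40 tested members, Del#3 over EVX1-Δfs, on the horizontal axis, ordered by imprinted cluster on the vertical axis, with colour for the parental copy usually expressed. Points are limma estimates from 3 libraries of each line and bars their 95% intervals, and the estimates run from -0.94 for *Nnat* to 1.05 for *Zdbf2*, and that of *Nnat* has the interval farthest from zero.

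*Nnat* encodes neuronatin, a small membrane protein of the endoplasmic reticulum, and is expressed from the paternal copy. It lies on chromosome 2 (chr2:157385814-157388258 of NCBIM37, plus strand) within the span of *Blcap*, a gene on the opposite strand with which it shares 0 exon bases. EVX1-Δfs had 1564, 1779 and 2179.9 normalized counts in replicates 1, 2 and 3, and Del#3 had 864, 1190.2 and 837. All 3 Del#3 values were under the lowest of EVX1-Δfs, and *Nnat* was the 1 member of 40 whose groups did not overlap, beside 3.51% of all genes. The means were 1841 ± 313 and 964 ± 197 (SD, n = 3 each), 1.91-fold higher in EVX1-Δfs (p = 0.1 in a two-sided exact permutation test, which cannot go lower with 3 libraries a line). Its log2 fold change was -0.94 (SE 0.24, 95% interval -1.48 to -0.40), with an unadjusted p of 0.00294 and an adjusted p of 1.00 in limma. With the replicate block the SE was 0.19 and the limma adjusted p 0.693, and DESeq2 with the block gave an adjusted p of 0.0440. The same-numbered differences were -0.86, -0.58 and -1.38. *Blcap*, a regulator of cell growth with isoforms from either parental copy, had 233, 265 and 274 against 199, 376 and 330.0 normalized counts. Its groups overlapped, and its log2 fold change was 0.18 (SE 0.30).

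Promoter windows of 300 bases from RefSeq, 250 bases before to 50 after a transcript start on GRCm38.p6, were found for 35 of the 41 members. They were searched for TGCCGC, read on the other strand as GCGGCA, the hexamer that ZFP57 binds when its CG is methylated. It was in a window of 10 members (28.6%): *Calcr*, *Commd1*, *Copg2*, *Mcts2*, *Meg3*, *Mest*, *Nnat*, *Plagl1*, *Zdbf2* and *Zim1*. Of all 27025 genes with a window, 13.1% held it. The members' windows held a median of 16.5 CG pairs, beside 7 for all windows. A match is a description of the letters and does not show binding. The windows of the 4 members that hold the hexamer and are described with full statistics are shown 5′ to 3′ on the gene's strand with the hexamer in capitals. They are *Nnat* (chr2:157559828-157560127, plus strand, 1 match, 17 CG pairs), *Mcts2* (chr2:152686898-152687197, plus strand, 1 match, 25 CG pairs) the farther upstream of the windows of *Zdbf2* (chr1:63200108-63200407, plus strand, 3 matches, 15 CG pairs) and *Zim1* (chr7:6696383-6696682, minus strand, 1 match, 20 CG pairs).
*Nnat*: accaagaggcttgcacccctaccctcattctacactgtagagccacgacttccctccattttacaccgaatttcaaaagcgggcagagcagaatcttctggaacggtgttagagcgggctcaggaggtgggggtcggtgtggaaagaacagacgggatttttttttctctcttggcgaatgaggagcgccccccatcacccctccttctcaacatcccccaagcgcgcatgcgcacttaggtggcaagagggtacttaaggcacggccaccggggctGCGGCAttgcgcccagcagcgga
*Mcts2*: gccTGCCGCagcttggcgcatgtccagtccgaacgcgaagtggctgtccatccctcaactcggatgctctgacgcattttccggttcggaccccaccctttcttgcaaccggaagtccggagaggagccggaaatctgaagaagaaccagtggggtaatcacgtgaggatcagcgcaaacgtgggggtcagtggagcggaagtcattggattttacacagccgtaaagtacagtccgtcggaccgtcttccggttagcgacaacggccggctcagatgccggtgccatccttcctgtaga
*Zdbf2*: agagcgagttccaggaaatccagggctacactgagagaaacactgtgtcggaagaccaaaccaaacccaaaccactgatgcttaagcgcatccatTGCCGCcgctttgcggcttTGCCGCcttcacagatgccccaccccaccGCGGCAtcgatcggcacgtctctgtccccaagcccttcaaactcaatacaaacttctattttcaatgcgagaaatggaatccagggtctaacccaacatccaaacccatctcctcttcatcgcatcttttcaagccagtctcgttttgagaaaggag
*Zim1*: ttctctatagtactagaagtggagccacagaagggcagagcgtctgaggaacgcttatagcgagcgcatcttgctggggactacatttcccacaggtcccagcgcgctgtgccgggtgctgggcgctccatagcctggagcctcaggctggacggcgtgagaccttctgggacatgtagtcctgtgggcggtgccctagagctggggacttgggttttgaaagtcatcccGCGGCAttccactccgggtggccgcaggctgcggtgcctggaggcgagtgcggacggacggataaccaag

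*Peg3* encodes a large zinc finger protein expressed from the paternal copy and known for its role in maternal behaviour and growth. It lies on chromosome 7 (chr7:6656603-6683132 of NCBIM37, minus strand). Its normalized counts were 6606, 2502 and 3153 in EVX1-Δfs and 10698, 3834 and 8245 in Del#3. Within the pairs of libraries from 1 day Del#3 was always higher, with log2 differences of 0.70, 0.62 and 1.39, and the groups overlapped because replicate 1 was high in both lines. The means were 4087 ± 2206 and 7592 ± 3478 (SD, n = 3 each), 1.86-fold higher in Del#3 (two-sided exact permutation test, p = 0.2). The log2 fold change was 0.90 (SE 0.43, 95% interval -0.05 to 1.85), with an unadjusted p of 0.0622 and an adjusted p of 1.00 in limma. With the replicate block the SE was 0.20 and the limma adjusted p 0.693, and DESeq2 with the block gave an adjusted p of 0.0441. When lengths and GC content were also corrected for, the DESeq2 adjusted p of *Peg3* was 0.239 and that of *Nnat* 0.0273.

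The *Peg3* window is shown because most of it is also the window of *Usp29*, which is transcribed away from it on the opposite strand. The *Peg3* window is chr7:6730370-6730669 on the minus strand of GRCm38.p6 and that of *Usp29* is chr7:6730333-6730632 on the plus strand. Capitals mark the 263 bases they share. The *Peg3* window held 13 CG pairs and 0 matches to the hexamer.
*Peg3*: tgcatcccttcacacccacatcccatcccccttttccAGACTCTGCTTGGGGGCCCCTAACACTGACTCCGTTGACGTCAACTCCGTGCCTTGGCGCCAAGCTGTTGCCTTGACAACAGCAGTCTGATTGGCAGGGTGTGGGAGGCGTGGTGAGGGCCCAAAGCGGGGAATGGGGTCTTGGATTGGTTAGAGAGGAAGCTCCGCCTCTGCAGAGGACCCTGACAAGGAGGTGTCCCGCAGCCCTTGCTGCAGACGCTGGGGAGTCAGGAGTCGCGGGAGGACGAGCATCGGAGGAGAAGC

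*Usp29*, a ubiquitin-specific protease, is expressed from the same parental copy as *Peg3*. It had 68.0, 85.6 and 61.4 normalized counts in EVX1-Δfs and 75.7, 29.0 and 84.4 in Del#3, with a log2 fold change of -0.31 (SE 0.43). Its same-numbered differences of 0.15, -1.53 and 0.45 were positive in 2 of 3 pairs, and the difference from *Peg3* was not tested. *Zim1*, a zinc finger gene beside *Peg3* expressed from the maternal copy, had 29.0, 14.1 and 26.0 against 82.9, 22.1 and 37.4. Del#3 was the higher line in each pair, by 1.48, 0.61 and 0.51, and the mean was 2.06-fold higher there. Its log2 fold change was 0.87 (SE 0.53, limma adjusted p 1.00).

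**Figure D2:**
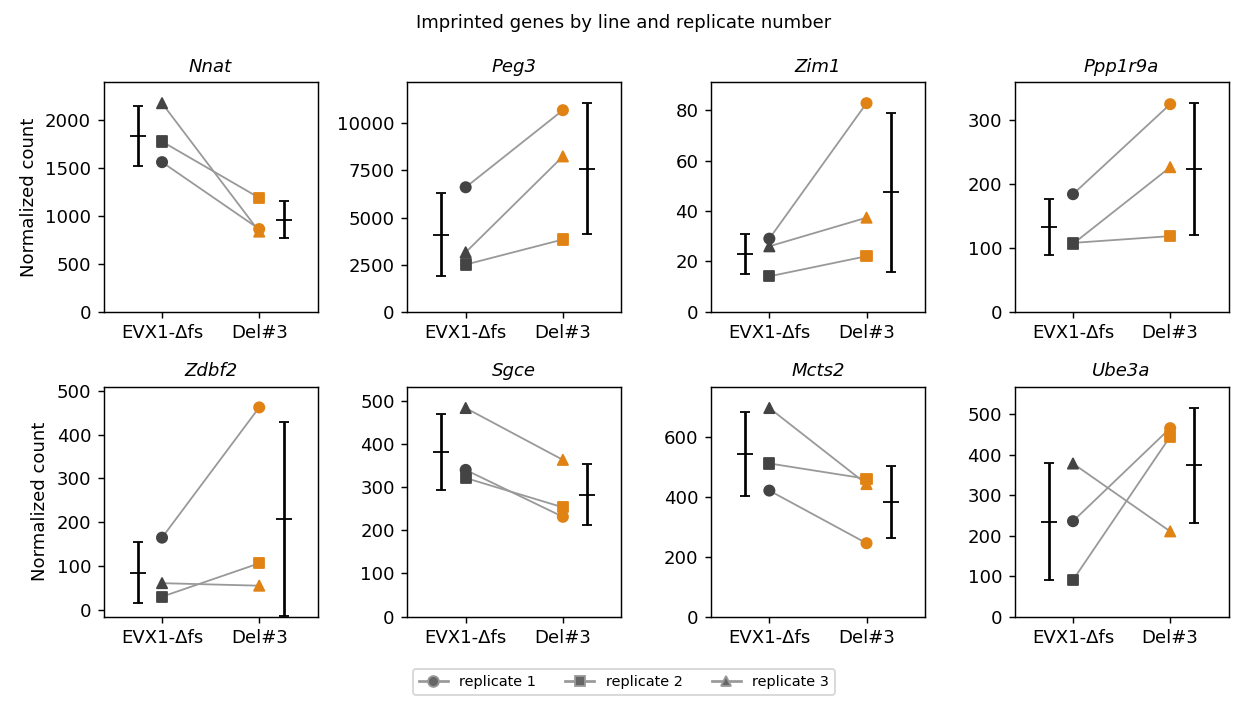
Normalized counts, on linear axes, of the 8 members given full statistics, with EVX1-Δfs and Del#3 libraries of the same replicate number joined by a line and bars for the mean ± SD of each line. The *Nnat* lines all fall from EVX1-Δfs to Del#3 and the *Peg3* and *Zim1* lines all rise, while *Ube3a* and *Zdbf2* each have 1 line that falls and 2 that rise.

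In the *Peg10* domain of chromosome 6, 3 of 5 tested members had higher and 2 lower estimates in Del#3, with a median log2 fold change of 0.032. *Peg10*, a gene derived from a retrotransposon and needed in the placenta, had 20807, 14770.3 and 8884 normalized counts in EVX1-Δfs and 20947, 7468 and 26960.3 in Del#3. The 2 ends of its range were both in Del#3, in replicates 2 and 3, and its log2 fold change was 0.21 (SE 0.47). *Sgce*, which encodes the membrane protein epsilon-sarcoglycan, lies 102 bases from *Peg10* on the opposite strand and is expressed from the same paternal copy. It had 339.9, 321 and 483 against 231, 253 and 363, lower in Del#3 in each pair by -0.55, -0.34 and -0.41. Its log2 fold change was -0.44 (SE 0.28, limma adjusted p 1.00). The maternally expressed *Ppp1r9a*, which encodes neurabin, an actin-binding protein of neurons, had 184, 108 and 106 against 325, 118 and 226. It was higher in Del#3 in each pair, by 0.82, 0.13 and 1.08, with a mean 1.68-fold higher and a log2 fold change of 0.68 (SE 0.40, limma adjusted p 1.00). *Asb4*, which encodes an ankyrin-repeat protein of a ubiquitin ligase, had 445, 465 and 551 against 444, 286 and 753, and *Calcr*, the calcitonin receptor, ranged from 52.1 to 112. The groups of all 5 genes overlapped.

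On the same chromosome *Mest*, an enzyme of the hydrolase family expressed from the paternal copy, had 14717, 11148 and 12533 normalized counts in EVX1-Δfs and 17755, 8604 and 14969 in Del#3. The lines overlapped, and the log2 fold change was 0.05 (SE 0.30). *Copg2*, a coat protein subunit of transport vesicles, ranged from 541 to 1001 with a log2 fold change of -0.23 (SE 0.28). These genes overlap by 904 exon bases on opposite strands.

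Of the members in the *Snrpn*-*Ube3a* domain of chromosome 7, 4 of 5 estimates were higher in Del#3, with a median log2 fold change of 0.14. *Ube3a*, the ubiquitin ligase lost in Angelman syndrome, is silenced on the paternal copy in neurons and expressed from both copies in most other cells. It had 236, 90.2 and 378 normalized counts in EVX1-Δfs and 465, 445 and 210.4 in Del#3. Its same-numbered differences were 0.98, 2.29 and -0.84, so replicate 3 had the opposite direction, and the log2 fold change was 0.81 (SE 0.50, limma adjusted p 1.00). *Magel2*, of the MAGE family of ubiquitin ligase regulators, had 453, 783 and 439.5 against 841, 687 and 679, with a log2 fold change of 0.44 (SE 0.28). *Ndn*, which encodes necdin of the same family, was at 1144 to 1827 in EVX1-Δfs and 1296 to 2048 in Del#3. *Mkrn3*, a ring finger protein, was at 172 to 239.8 and 159 to 245, and *Atp10a*, a phospholipid-transporting ATPase, at 262 to 456 and 317 to 517. None of the 5 genes had separate groups.

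The *Kcnq1* domain on distal chromosome 7 had the most tested members, 4 of 8 higher and 4 lower in Del#3, with a median log2 fold change of 0.0069. *Kcnq1ot1*, the paternally expressed long noncoding RNA that silences its neighbours on that copy, had 35.6, 18.8 and 56.7 normalized counts in EVX1-Δfs and 96.4, 61.5 and 22.4 in Del#3, which overlapped (log2 fold change 0.59, SE 0.57). *Cdkn1c*, the cyclin-dependent kinase inhibitor p57, had 625, 722 and 1050.4 against 732, 1446 and 1169. It was higher in Del#3 in each pair, by 0.23, 1.00 and 0.15, with a log2 fold change of 0.46 (SE 0.31). *Phlda2*, which restrains placental growth, had 2214, 3031 and 4093 against 1988, 5041 and 5329, with a log2 fold change of 0.32 (SE 0.38). *Ascl2*, a transcription factor of trophoblast, was at 26.4 to 58.6 over the 6 libraries, and the transporter *Slc22a18* at 9.56 to 19.2. At the edge of the domain, the tetraspanin *Cd81* was at 1197 to 2421, *Tssc4* at 509 to 1001 and the nucleosome assembly gene *Nap1l4* at 2882 to 4147, with log2 fold changes of -0.16, -0.16 and -0.07. *Tssc4* was lower in Del#3 in each pair.

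*H19*, a maternally expressed noncoding RNA that carries a microRNA, had 36445, 32781 and 39051 normalized counts in EVX1-Δfs and 36202, 31975 and 47879 in Del#3, with a log2 fold change of 0.08 (SE 0.26). Its neighbour *Igf2*, of the IGF axis, had 5809.8, 4068 and 3786 against 7245, 4274 and 7141. *Grb10*, also of that axis, had 895, 631 and 798 against 3348, 1796 and 2646, the groups not overlapping, and *Igf2r* had 770.2, 565 and 339 against 1007, 383 and 571. Elsewhere on chromosome 7, *Inpp5f*, an inositol phosphatase with a short paternal variant that these totals do not separate, was at 341 to 470.2 and 278 to 447.

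In the *Dlk1*-*Meg3* domain of chromosome 12 the protein-coding gene and the noncoding RNAs, which come from opposite parental copies, were each within the spread of the libraries. *Dlk1*, a membrane ligand related to those of Notch, had 131, 145 and 78.0 normalized counts in EVX1-Δfs and 137, 131 and 187 in Del#3. Its same-numbered differences were 0.06, -0.15 and 1.25, so the log2 fold change of 0.39 (SE 0.33) came mostly from replicate 3. *Meg3* had 1742, 1614 and 903 against 2589, 1047 and 1236, *Rian* 2400.4, 1306 and 1355 against 2701, 761 and 1441, and *Mirg* 202, 157 and 80.3 against 157, 95.2 and 156. The 3 maternal noncoding RNAs were each lower in Del#3 in replicate 2 and higher in replicate 3, and in replicate 1 *Meg3* and *Rian* were higher and *Mirg* lower. Their log2 fold changes were 0.13, -0.17 and -0.04.

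*Gnas*, the stimulatory G protein subunit of a chromosome 2 locus with transcripts from either copy, had 12901, 16861 and 12919.7 normalized counts in EVX1-Δfs and 12533, 16779 and 17636 in Del#3, with a log2 fold change of 0.13. *Mcts2*, a paternally expressed copy of the translation factor gene *Mcts1*, lies in an intron of *H13* on the same strand and shares 0 exon bases with it. It had 420.4, 511 and 696 against 245, 459.8 and 442, lower in Del#3 in each pair by -0.78, -0.15 and -0.65. Its log2 fold change was -0.53 (SE 0.32, limma adjusted p 1.00), and that of *H13* 0.16. Reads of *Mcts2* and *Mcts1* may be hard to tell apart, so its counts are uncertain. *Gatm*, the first enzyme of creatine synthesis, was at 82.5 to 145 and 70.1 to 119.

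Among members that stand alone, *Zdbf2* had the highest estimate of the 40 in the main limma fit. With the length and GC correction *Zim1* at 0.94 and *Peg3* at 0.72 were above *Zdbf2* at 0.69. Its paternal expression is set by a transcript that starts far upstream in the early embryo. Its normalized counts were 164, 29.3 and 60.3 in EVX1-Δfs and 462, 106 and 54.5 in Del#3. Replicate 1 was the highest of each line, and the same-numbered differences of 1.49, 1.82 and -0.14 did not share a direction. The mean was 2.45-fold higher in Del#3, and the log2 fold change was 1.05 (SE 0.77, 95% interval -0.64 to 2.75, limma adjusted p 1.00). *Plagl1*, a zinc finger regulator of other imprinted genes, had 46.2, 22.3 and 9.45 against 70.1, 10.5 and 20.3. The amino acid transporter *Slc38a4* was at 961 to 2208 and 1134 to 2074, and *Impact*, a regulator of translation, at 269.6 to 739 and 316 to 665. *Zrsr1*, a paternally expressed retrogene of a splicing factor, was at 177 to 316 and 141 to 322. It lies inside *Commd1*, a gene of copper handling, on the opposite strand with 203 shared exon bases, and *Commd1* was at 1336 to 1788 and 1223 to 1677.

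The same-numbered pairs shared a direction for 4 members higher in Del#3 (*Peg3*, *Zim1*, *Ppp1r9a* and *Cdkn1c*) and 5 lower (*Nnat*, *Sgce*, *Mcts2*, *Tssc4* and *Inpp5f*), beside 12.1% and 11.0% of all genes. Of the 7 members at an unadjusted p under 0.05 in limma with the replicate block, 4 were higher in Del#3, beside 3.64% of all genes, and 3 lower, beside 0.985%. In that limma fit the unadjusted p was 0.00203 for *Peg3*, 0.0212 for *Zdbf2*, 0.0224 for *Ppp1r9a* and 0.038 for *Zim1* among the higher, and 0.00112 for *Nnat*, 0.0242 for *Mcts2* and 0.039 for *Sgce* among the lower. None of them passed the adjustment over all genes in that fit, with adjusted p-values from 0.693 to 0.992. A log2 fold change of at least 0.5 in either direction was estimated for 8 members, beside 10.1% of all genes. In the *Peg3* domain the paternal *Peg3* and the maternal *Zim1* were both higher in Del#3 in each pair, and the paternal *Usp29* was not. In the *Peg10* domain the paternal *Sgce* was lower in each pair and the maternal *Ppp1r9a* higher.

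Members differed more between replicate numbers than between lines. The median share of a member's sum of squares of log2(normalized count + 1) was 70.6% between replicate numbers and 5.25% between lines, beside 64.4% and 6.70% for all genes. There were more replicate numbers than lines, so the first share tends to be larger even where neither has an effect. Over all genes, same-numbered deviations from the line means correlated at 0.74, 0.32 and -0.053 for replicates 1 to 3. For 35 of 40 members the replicate number took the larger share, as it did for 87.3% of all genes. *Nnat* was an exception, with 82.8% between lines. The highest library was a median 2.29-fold above the lowest for members and 1.96-fold for all genes. Replicate 1 was the highest of both lines for 12 members, beside 27.9% of all genes: *Peg3*, *Zim1*, *Ppp1r9a*, *Mest*, *Meg3*, *Rian*, *Mirg*, *Zdbf2*, *Plagl1*, *Slc38a4*, *Impact* and *Zrsr1*. It was the lowest of both lines for 14 members, beside 26.4% of all genes, among them *Cdkn1c*, *Phlda2*, *Gnas* and *Mcts2*.

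**Figure D3:**
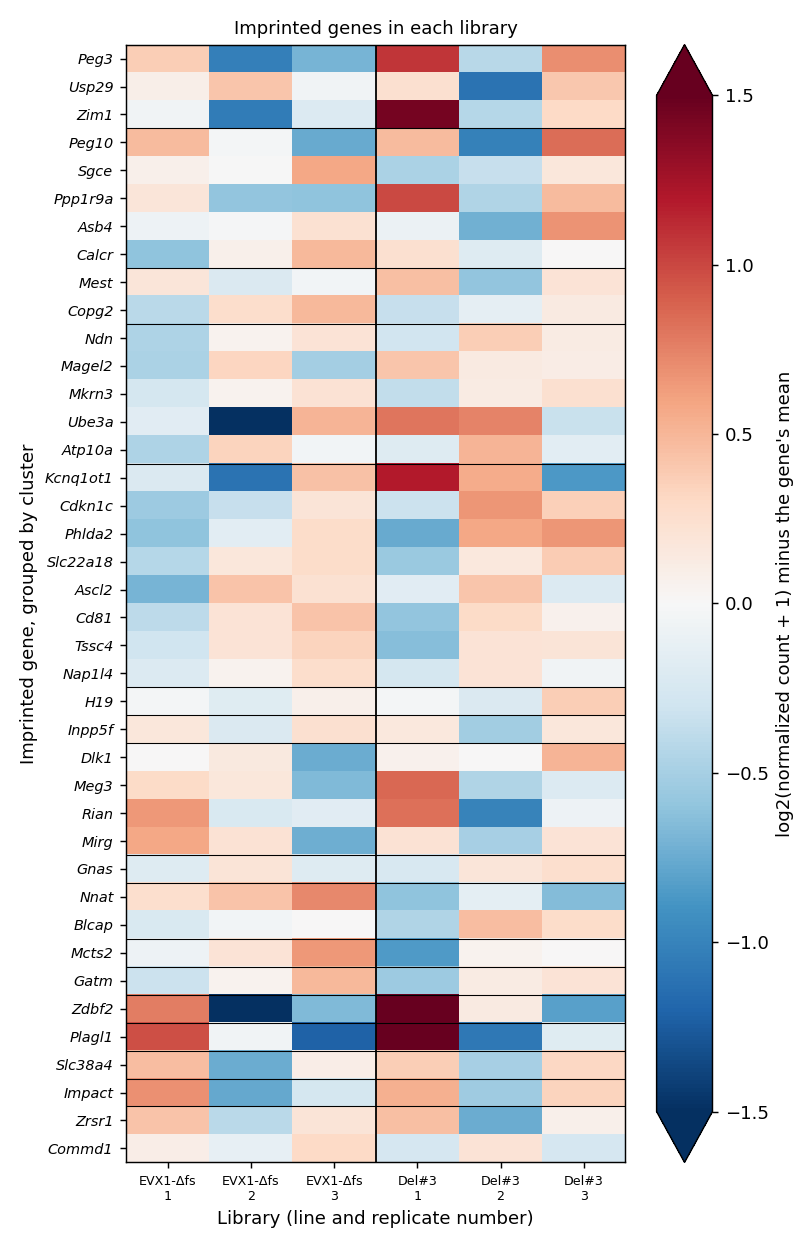
Log2(normalized count + 1) of each member in each of the 6 libraries, less the member's mean over the libraries, in colour, with members in rows by imprinted cluster and libraries in columns by line and replicate. Replicate 1 of both lines is above the mean for *Peg3*, *Meg3* and *Zdbf2*, and *Nnat* separates the lines.

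The members that were high in replicate 1 had longer transcripts, as medians, than those that were low there. The 12 had a median of 5659.5 exon bases and 45.2% GC, and the 14 had 2277.5 exon bases and 52.1% GC. Over all genes split the same way the medians were 4742 and 2916 exon bases, and *Mirg*, *Zrsr1* and *Impact* of the 12 were shorter than the median tested member at 3641. Across 39 members with an annotated length, exon length and the difference of replicate 1 from replicates 2 and 3 had a Spearman rho of 0.727, and across 12235 genes 0.341. Exon length and the log2 difference between the lines had a rho of 0.361 over members and 0.313 over all genes. These describe genes that share the same 6 libraries, and genes are not independent replicates. The part of transcript length in the differences of single members was tried only by the length and GC correction. Under it the log2 fold change of *Nnat* was -0.93, of *Sgce* -0.45 and of *Zim1* 0.94, near the uncorrected values. That of *Peg3* was 0.72, of *Ppp1r9a* 0.52, of *Zdbf2* 0.69, of *Ube3a* 0.44 and of *Mcts2* -0.25, all nearer to zero, while that of *Rian* was -0.60. In limma with both the block and the correction 7 members again had an unadjusted p under 0.05, beside 4.19% of all genes, but *Zdbf2* and *Mcts2* were replaced by *Rian* and *Phlda2*.

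**Figure D4:**
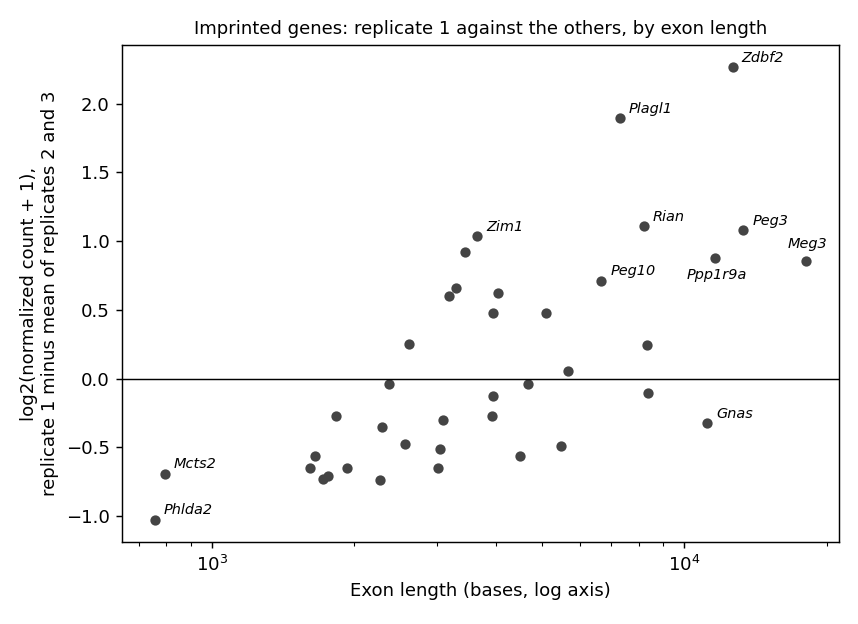
Exon length of each member in bases, on a log axis, against the difference in log2(normalized count + 1) of replicate 1 from the mean of replicates 2 and 3, with both lines averaged. Points are the 39 members with an annotated length, and longer members lie higher, with a Spearman rho of 0.727.

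Compared per length, as mean RPKM (reads per kilobase of exon, scaled to library size), the members covered a wide range. *H19* was the highest at 1489 RPKM, then *Phlda2* at 445, *Mest* at 322, *Peg10* at 239.6, *Nap1l4* at 143 and *Gnas* at 126. *Nnat* was at 71.7, *Mcts2* at 54.4, *Cdkn1c* at 46.3 and *Peg3* at 42.3.

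Factors that hold imprints or that add or remove DNA methylation were also measured, from a list of 14 genes that were all tested. With limma 0 passed the adjusted threshold, and 1 had an unadjusted p under 0.05, beside 1.03% of all genes, or 4 with the replicate block, beside 4.62%. *Zfp445*, which binds imprinting control regions beside *Zfp57*, had 434, 164 and 336 normalized counts in EVX1-Δfs and 991, 417 and 452 in Del#3. Del#3 was higher in each pair, by 1.19, 1.34 and 0.43, and the log2 fold change was 0.99 (SE 0.42), with an unadjusted limma p of 0.0404 and an adjusted p of 0.693 with the block. The lines overlapped, and replicate 1 was the highest library of each. The other 3 of the 4 genes were the demethylating enzymes *Tet1* and *Tet2*, with log2 fold changes of 0.61 and 0.96, and *Dppa3*, which protects maternal imprints in the zygote, with -0.74. Within the list the lines did not overlap for *Dppa3* and the methyltransferase cofactor *Dnmt3l*, both lower in Del#3, beside 3.51% of all genes. The list's median log2 fold change was 0.057. The most abundant of the 14, the co-repressor *Trim28* and the DNA methyltransferase *Dnmt3b*, had 0.105 and 0.009, and *Zfp57* had -0.035.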

How the data were processed

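mRNA-seq libraries of D4 EBs were compared, 3 of EVX1-Δfs and 3 of Del#3. According to the study's methods and the submitters' processing notes, TopHat2, followed by TMAP, placed the Ion Proton reads on mm9, and HTSeq counted them per gene at its standard settings, which use strand. Versions and the gene annotation are not given in the sources used here. The deposited signal values are these counts divided by 1 size factor per library. Dividing by each library's step gave whole reads for 100% of its values, within 0.01 reads, and these recovered reads were used for the count tests, which gave 0 (edgeR, DESeq2) to 2 (DESeq2 with the replicate block) members past the threshold.

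The main test was limma (3.58.1, in R 4.3.3) with a trend on log2(normalized count + 1), with no covariate, over the 12891 genes that passed filterByExpr (edgeR 4.0.16, minimum count 10). Adjusted p-values are those of Benjamini and Hochberg over these genes, with a threshold of 0.05. A fold change on this scale understates the change of low genes. Fold changes between means are of normalized counts. Differences between same-numbered libraries are on the same log2 scale as the test.

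The series' design text sets each replicate number on its own day, so the numbers pair the libraries. The correlations of same-numbered deviations from the line means were 0.74, 0.32 and -0.053 for replicates 1 to 3. Alternatives were edgeR's quasi-likelihood test and DESeq2 (1.42.0), TMM factors or total reads, pseudocounts of 0.1 and 5, other low-count filters, the replicate block, and leaving out each library. DESeq2 on all genes of the table, and a loess correction (span 0.3) for transcript length and GC with and without the block, were added after seeing the data. The limma, edgeR and DESeq2 fits without the block or the correction were tried on counts simulated with no replicate, length or GC effect. The blocked and corrected fits were not tried on simulated data.

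Gene positions and exon lengths are those of GENCODE vM1 on NCBIM37, the assembly known as mm9, and promoter windows are those of RefSeq on GRCm38.p6. Every used member is named. An adjusted p beside the log2 fold change and its SE, the full statistics of the text, went to members with an unadjusted limma p under 0.05, with or without the block, and to the 6 with the largest absolute log2 fold changes. Genes of other lists are named at an unadjusted limma p under 0.05 with or without the block, or as examples by highest mean. *Zfp57*, *Dnmt3l* and the members listed by their direction in the pairs or by their place in replicate 1 were chosen after their values were seen. The members and lists were chosen with earlier results of these data known.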

Additional observations from a re-analysis of the deposited data

How the results depend on the processing

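Of 22 alternatives, 3 called members. DESeq2 with the replicate block called 2, that block without a low-count filter 2, and the block with a length and GC correction 1, and the other alternatives called 0. The adjusted p ranged from 0.0273 to 1.00 for *Nnat* and from 0.0441 to 1.00 for *Peg3*. The blocked fit in limma called 0 members. The number of genes called among all tested was 2 in limma and 18, 15 and 8 in those 3 DESeq2 fits in the same order. The members' median log2 fold change was 0.051 to 0.12 under the settings that kept every library and -0.022 (without Del#3 replicate 3) to 0.18 (without Del#3 replicate 2) when 1 was left out. The number of members at an unadjusted p under 0.05 was 1 to 4 with 1 library left out. It was 4 without EVX1-Δfs replicate 1 or Del#3 replicate 2, beside 3.41% and 1.91% of all genes, 3 without Del#3 replicate 1, beside 0.574%, and at most 8 otherwise, beside 4.50%. The log2 fold change stayed between -1.10 and -0.81 for *Nnat*, 0.59 and 1.33 for *Peg3*, 0.37 and 1.30 for *Zim1*, 0.35 and 1.07 for *Ppp1r9a*, 0.24 and 1.26 for *Ube3a*, 0.19 and 1.72 for *Zdbf2*, -0.63 and -0.25 for *Sgce* and -0.70 and -0.23 for *Mcts2* when 1 library was left out. With the same sign throughout those fits, it ran from 0.069 to 0.78 for *Phlda2*, 0.14 to 1.17 for *Kcnq1ot1*, 0.12 to 0.56 for *Dlk1*, 0.25 to 0.74 for *Cdkn1c*, 0.30 to 0.71 for *Magel2*, 0.039 to 0.29 for *Gnas*, -0.49 to -0.046 for *Copg2* and -0.34 to -0.088 for *Commd1*. The length and GC correction moved 14 members by over 1.5 times with the same sign, 8 nearer to zero and 6 farther. Among them were *Mcts2* at -0.25, *Ube3a* at 0.44, *Zdbf2* at 0.69, *Impact* at 0.050, *Atp10a* at 0.056, *Cd81* at -0.090 and *Usp29* at -0.20 on the nearer side, and *Rian* at -0.60, *Zrsr1* at -0.24, *Inpp5f* at -0.20, *Asb4* at -0.16, *Mest* at 0.14 and *Calcr* at 0.11 on the farther.

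Of the 40 members, 15 had the same sign throughout, 16 changed sign only when a library was left out and 9 under another setting. The other settings that changed a sign gave 0.050 for *Asb4*, 0.029 for *Mkrn3* and 0.039 for *Slc22a18* in edgeR, and 0.018 and 0.012 for the last pair in edgeR with the replicate block. DESeq2 gave 0.022 for *Asb4*, -0.0097 for *Calcr*, 0.0087 for *Mkrn3*, 0.017 for *Slc22a18* and -0.011 for *Ascl2*, and without a low-count filter 0.022, -0.011, 0.0083, 0.017 and -0.012. TMM factors gave 0.018 and 0.0087, and total reads 0.031 and 0.020, for *Mkrn3* and *Slc22a18*. The length and GC correction gave 0.12 for *Mkrn3*, 0.050 for *Nap1l4*, -0.12 for *Meg3*, 0.040 for *Mirg* (0.026 in DESeq2 with the replicate block) and -0.17 for *Gnas*. With 1 library left out the log2 fold change ran from -0.44 to 0.25 for *Asb4*, -0.32 to 0.24 for *Ascl2*, -0.12 to 0.31 for *Atp10a*, -0.0014 to 0.46 for *Blcap*, -0.26 to 0.28 for *Calcr*, -0.40 to 0.094 for *Cd81*, -0.34 to 0.089 for *Gatm*, -0.081 to 0.21 for *H19*, -0.10 to 0.63 for *Impact*, -0.27 to 0.098 for *Inpp5f*, -0.26 to 0.39 for *Meg3*, -0.16 to 0.36 for *Mest*, -0.42 to 0.24 for *Mirg*, -0.14 to 0.18 for *Mkrn3*, -0.19 to 0.042 for *Nap1l4*, -0.062 to 0.31 for *Ndn*, -0.16 to 0.77 for *Peg10*, -0.53 to 0.79 for *Plagl1*, -0.63 to 0.28 for *Rian*, -0.22 to 0.26 for *Slc22a18*, -0.22 to 0.40 for *Slc38a4*, -0.35 to 0.12 for *Tssc4*, -0.58 to 0.17 for *Usp29* and -0.40 to 0.20 for *Zrsr1*. The cause was not tested. Counting error was not separated from the spread between libraries.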

Other observations

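Imprinted genes that are not among the members were also spread to both sides. Of 32 further symbols, 12 were tested, with 6 estimates higher and 6 lower in Del#3 and a median log2 fold change of 0.028. With limma 0 passed the adjusted threshold, and 0 had an unadjusted p under 0.05 with or without the replicate block. The most abundant were *Dhcr7*, the last enzyme of cholesterol synthesis, with a log2 fold change of 0.14, and *Bcl2l1*, an inhibitor of apoptosis, with -0.11. Of the 6 genes that host or flank imprinted retrogenes and variants, 3 estimates were higher and 3 lower, with a median of -0.042, and 0 had an unadjusted limma p under 0.05. Of these 6, *Blcap*, *Commd1*, *Copg2* and *Inpp5f* are also counted among the 40 members.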
